A study of Lachancea waltii with 4 samples.

Results

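Transcript levels and genomic DNA signals were examined for 103 genes that lie on the small contigs of the draft genome of Kluyveromyces waltii (now Lachancea waltii), out of 5193 genes with probes on the array. K. waltii is a budding yeast whose lineage separated from that of Saccharomyces cerevisiae before the whole-genome duplication. Its gene identifiers, such as Kwal_8.533, name the assembled contig before the dot and the gene after it. A contig was counted as small when 12 or fewer genes on the array carried its name, and a gene was left out when one of its probes was identical in sequence to a probe of another gene. Both criteria use the array design and no measured signal. Of 54 contig names, 44 were small, and these held 140 genes. An identical probe removed 37 of the 140 genes (26.4%), whereas 41 of 5053 genes (0.811%) on the 10 large contigs shared a probe in this way. The remaining 103 genes lay on 40 contigs.

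Most of these contigs were very short. Of the 44 small contigs, 4 carried 1 gene, 11 carried 2, 16 carried 3, 7 carried 4 and 4 carried 5. The largest were Kwal_6 with 7 genes and Kwal_8 with 11 genes. The smallest large contig, Kwal_0, carried 83 genes, and no contig lay between 11 and 83 genes, so that other thresholds in that gap pick the same contigs.

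Short contigs are what a draft assembly leaves where reads could not be joined to their neighbours. Sequences present in several similar copies, such as transposable elements, ribosomal DNA and the gene families near chromosome ends, are known to assemble poorly in yeasts, and so is the AT-rich mitochondrial genome. Hybridisation to genomic DNA bears on this question, because a probe whose target occurs in many copies captures more labelled DNA than a probe for a gene present once. The signal also depends on how well a probe hybridises, and these parts were not separated here, so that it is not a count of copies. The files pair the K. waltii identifiers with no gene names, products or positions, and no annotation was used, so that genes are given by identifier and no function is assigned to them.

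Cells of strain NCYC 2644 were harvested from mid-log cultures in rich medium. Their total RNA carried the dye Cy3 and was mixed with Cy5-labelled genomic DNA of that strain, and the mixture was hybridised to a custom oligonucleotide array with 2 probes of 55 bases for each gene. The 4 arrays form 1 group. The methods describe RNA samples as biological replicates mixed with 1 genomic DNA reference, so that the spread of the genomic DNA signal over arrays is technical. The median signal of gene probes lay between 1191 and 1713.5 units for RNA and between 7917 and 9640 units for genomic DNA, and 0 probes were saturated. All values below are log2 differences from the median gene of the array. The level of a gene is the log2 ratio of its RNA to its genomic DNA signal, and the RNA signal and the genomic DNA signal were also taken alone. Of the 103 genes, 98 were measured with 2 probes and 5 with 1.

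The small-contig genes gave genomic DNA signals well above those of most genes. Their median genomic DNA signal was 1.63, or 3.09-fold above the median gene, with medians of 1.71, 1.72, 1.57 and 1.65 on arrays 1 to 4. It was more than 2-fold above the median gene for 59 of the 103 genes (57.3%), against 4.82% of all 5192 genes measured, and more than 8-fold for 12 genes (11.7%), against 0.539%. These genes made up 1.98% of the array but 23.6% of the 250 genes with more than 2-fold genomic DNA signal. At the other end, 6 small-contig genes (5.83%) lay more than 2-fold below the median gene, against 0.886% of all genes. The remaining 38 genes were within 2-fold of it. No test was run on these shares, which describe this array design and this genomic DNA.

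**Figure D1:**
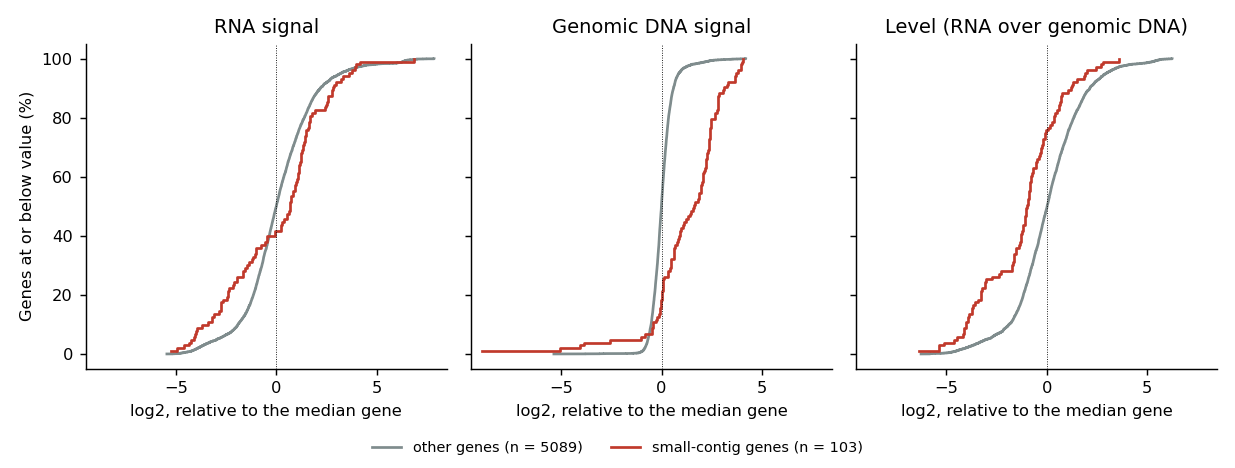
Cumulative share of genes (%, vertical axes) against RNA signal, genomic DNA signal and level (log2 relative to the median gene, horizontal axes) for the 103 small-contig genes in red and the other 5089 genes in grey, each gene as the value over 4 arrays. The red genomic DNA curve lies far to the right, with a median of 1.63, while the red level curve lies to the left, with a median of -0.99; the red RNA curve is wider than the grey one on both sides.

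Relative to genomic DNA, small-contig genes were more often low than high. With limma's test against a 2-fold bound, adjusted over all genes, 10 small-contig genes (9.71%) lay above the median gene, against 23.1% of all genes, and 42 (40.8%) lay below it, against 21.0% of all genes. The other 51 passed in neither direction. The median level was -0.99 (SD 0.10 over arrays, with medians of -1.07, -0.83, -0.98 and -0.96 on arrays 1 to 4), and the middle 50% of the genes ran from -2.88 to -0.08. Of the 10 genes above, Kwal_37.16342 was not well above background in either channel on any array and has no usable level, which leaves 9. Leaving out the 2 genes whose RNA was not well above background on any array, the median of the other 101 was also -0.99.

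The RNA signal alone gave a different order. Without division by genomic DNA, 34 small-contig genes (33.0%) lay above the median gene by the same limma test, against 23.6% of all genes, and 30 (29.1%) lay below it, against 19.5%. The median RNA signal was 0.68, or 1.61-fold above the median gene, so that the sign of the median turned. In 38 genes the level was below 0 while the RNA signal was above 0, and in 3 genes the reverse held. Only 24 of the 42 genes with a low level were also low in RNA alone, 16 passed in neither direction and 2 (Kwal_37.16352 and Kwal_54.19470) were above. Of the 51 genes whose level passed in neither direction, 25 were above in RNA alone and 4 below. Low levels were thus found both in genes with little RNA and in genes whose RNA was near or above the median gene but whose genomic DNA signal was higher still.

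The split of calls also moved with the background and dye correction. With a normexp background, 7 small-contig genes were above and 74 below, against 23.7% and 22.7% of all genes. After loess within each array it was 5 above and 73 below, against 520 genes and 843 genes (16.2%) of all, and with the log ratio of the scanner software 4 above and 75 below, against 10.4% and 13.5%. In each of these settings, as with the subtracted signals, more small-contig genes were below than above, and RNA alone was the setting in which the order turned.

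**Figure D2:**
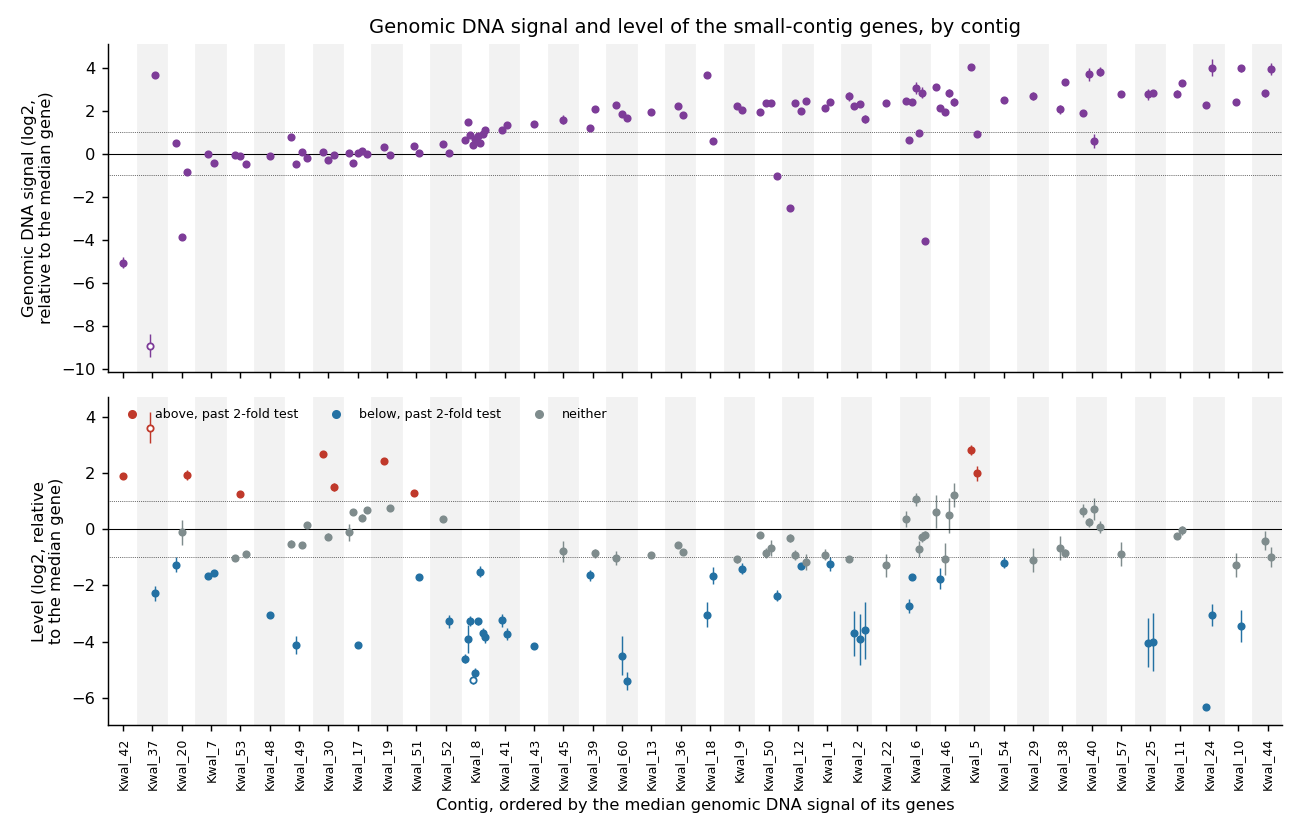
Genomic DNA signal (upper panel) and level (lower panel) of the 103 small-contig genes, log2 relative to the median gene, with points at the gene value and bars of 1 SD over 4 arrays; contigs on the horizontal axis are ordered by the median genomic DNA signal of their genes. Point colours in the lower panel give the call against the 2-fold bound, dotted lines mark 2-fold and open points were not well above background; of the contigs at the right with medians over 2, only Kwal_5 carries genes called above.

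The contigs differed in genomic DNA signal. On 14 of the 31 contigs with at least 2 small-contig genes, all of these genes were more than 2-fold above the median gene in genomic DNA, on 8 all were within 2-fold and 9 were mixed. With the contigs that held 1 small-contig gene, there were 21 contigs with high signals alone, and these held 41 genes. Of these 41, 0 had a level above the median gene and 18 had a level below it, with a median level of -1.11, a median RNA signal of 1.08 and a median genomic DNA signal of 2.28. By contrast, 9 contigs (Kwal_7, Kwal_17, Kwal_19, Kwal_30, Kwal_48, Kwal_49, Kwal_51, Kwal_52 and Kwal_53) carried 24 genes that were all within 2-fold in genomic DNA. Of these 24 genes, 5 were above (20.8%) and 7 below (29.2%), with a median level of -0.19 and a median RNA signal of -0.05. The last 10 contigs were mixed and held 38 genes, of which 5 were above and 17 below. The genomic DNA signal that sorts these contigs is also the denominator of the level, so that the levels of the classes are given as a description alone.

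Small-contig genes with a long stretch of sequence in common with another gene had high genomic DNA signals. The selection removed probes identical over their whole length, and shorter shared stretches were still allowed. A stretch of 30 or more bases shared, on either strand, with a probe of another gene was found in 27 small-contig genes (26.2%), against 3.10% of all genes. All 27 were more than 2-fold above the median gene in genomic DNA, with a median of 2.33 and a range from 1.32 to 4.04. Their levels lay close together, with a median of -0.99 and the middle 50% between -1.26 and -0.73, and 20 of the 27 lay between -1.5 and -0.5. Their RNA signals were high, with a median of 1.26 and 14 of 27 (51.9%) above the 2-fold bound by limma, against 23.6% of all genes. Among the 12 genes with a longest shared stretch of 20 to 29 bases, 7 exceeded 2-fold in genomic DNA and 2 lay more than 2-fold below the median gene. On large contigs, 40 of the 56 genes with a stretch of 30 or more bases (71.4%) exceeded 2-fold. In RNA alone, 24 of those 56 (42.9%) were above the bound by limma, with a median of 0.89, so that high RNA was not particular to small contigs. The 64 genes whose longest shared stretch was under 20 bases had a median genomic DNA signal of 0.66 and a wider range of levels, with the middle 50% between -3.27 and 0.53. Of these 64, 25 also exceeded 2-fold in genomic DNA without any such stretch, 14 of them with a level below the median gene and 0 above. The array holds 2 probes per gene, so that similarity outside the probes was not measured, and the part of shared sequence in the genomic DNA signal was not tested.

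**Figure D3:**
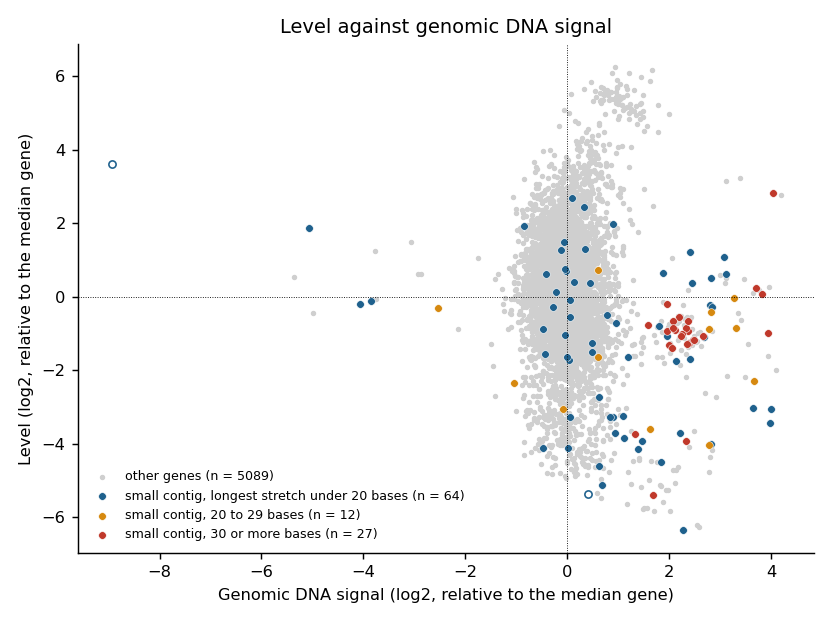
Level (vertical axis) against genomic DNA signal (horizontal axis), both log2 relative to the median gene, for 5089 other genes in grey and 103 small-contig genes coloured by the longest stretch their probes share with a probe of another gene; open points were not well above background on any array. The 27 genes with a stretch of 30 or more bases all lie to the right of 1, most of them in a tight group near a level of -1.

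Linking genes that shared 30 or more bases gave 20 families with at least 1 small-contig gene. In 20 of the 27 linked genes the family also held a gene of a large contig, and 11 of the 27 were linked to another small-contig gene. The family with the most small-contig genes, Kwal_1.410, Kwal_12.675, Kwal_50.19418 and Kwal_54.19470, spread over 4 contigs yet had levels from -1.33 to -0.86 and genomic DNA signals from 2.0 to 2.48. A second family joined Kwal_2.417, Kwal_13.697 and Kwal_36.16333, with levels from -1.07 to -0.55 and genomic DNA signals from 1.96 to 2.67. Another family joined 2 genes of contig Kwal_40. Kwal_40.16444 had a genomic DNA signal of 3.70 and an RNA signal of 3.95, Kwal_40.16456 had 3.82 and 3.91, and their levels were 0.24 and 0.06. Members of a family can capture each other's targets, so that their values are not independent measurements.

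Among the small-contig genes, the genomic DNA signal was highest at Kwal_5.482. Its genomic DNA signals were 4.03, 4.07, 3.95 and 4.11 on arrays 1 to 4 and its RNA signals 6.96, 6.70, 6.99 and 6.86, or 117-fold above the median gene, which ranked 14 among the RNA signals of all genes. It therefore kept a high level in spite of a 16.4-fold genomic DNA signal, at 2.91, 2.61, 3.04 and 2.73 (limma adjusted p = 1.73e-08). The 20 genes with the strongest RNA signals on the array had a median genomic DNA signal of 1.27, so that very strong RNA and raised genomic DNA signals occurred together there too. The level of Kwal_5.482 turned to -4.79 after loess and to -2.89 with the scanner log ratio, and that of Kwal_5.492 on the same contig (1.98 ± 0.26, SD, n = 4) turned to -0.99 and -0.057, so that no direction of the level holds for this contig across those settings.

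The next highest genomic DNA signals belonged to Kwal_24.6618 (4.01), Kwal_10.636 (3.97) and Kwal_44.16504 (3.95). Kwal_24.6618 and Kwal_10.636 behaved alike and unlike Kwal_5.482, with levels of -3.06 ± 0.38 and -3.45 ± 0.56 (SD, n = 4; limma adjusted p = 5.06e-07 and 1.21e-06) although their RNA signals of 0.96 and 0.52 were above the median gene. Kwal_18.2702 showed the same combination, with a genomic DNA signal of 3.64, an RNA signal of 0.62 and a level of -3.04. These genes are on separate contigs and their longest shared stretches were 16, 16 and 11 bases, against 30 for Kwal_5.482 and 33 for Kwal_44.16504. Within each of the 3 genes the 2 probes overlapped by 54, 53 and 53 bases, so that each value is nearly that of 1 probe. Kwal_44.16504 had more RNA, at 2.42, 3.66, 2.82 and 2.98 on arrays 1 to 4, and its level of -0.99 did not pass the bound (limma adjusted p = 1).

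GC-rich probes were frequent among the genes with the strongest genomic DNA signals. Probes with 48% or more G and C belonged to 15 small-contig genes (14.6%), against 2.06% of all genes, and these 15 had a median genomic DNA signal of 3.32. They included 8 of the 12 genes over 8-fold. The 90 genes with such probes on large contigs had a median genomic DNA signal of 0.55. None of the 15 had a level above the median gene and 6 had a level below it, whereas 42 of the 90 on large contigs were above and 18 below. At the AT-rich end, 9 small-contig genes (8.74%) had probes under 38% G and C, against 3.93% of all genes.

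All 7 genes of contig Kwal_6 were among those 9, with 16.4% to 37.3% G and C. Their genomic DNA signals spread from -4.06 to 3.08, the widest spread of a contig apart from Kwal_37 and its gene below background. Kwal_6.509, Kwal_6.519, Kwal_6.502 and Kwal_6.505 were at 3.08, 2.85, 2.46 and 2.40, with probes of 36.4% to 37.3% G and C. Kwal_6.516 and Kwal_6.503 were at 0.96 and 0.63, with 23.6% and 30.9%, and Kwal_6.520, at 16.4%, was at -4.06. Within this contig the more AT-rich probes thus had the lower genomic DNA signals, although Kwal_6.503 was below Kwal_6.516. Levels on Kwal_6 ran from -2.73 to 1.07, with 2 genes below the bound and 0 above, and RNA signals ran from -4.25 to 4.17. The part of base composition in these values was not tested.

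**Figure D4:**
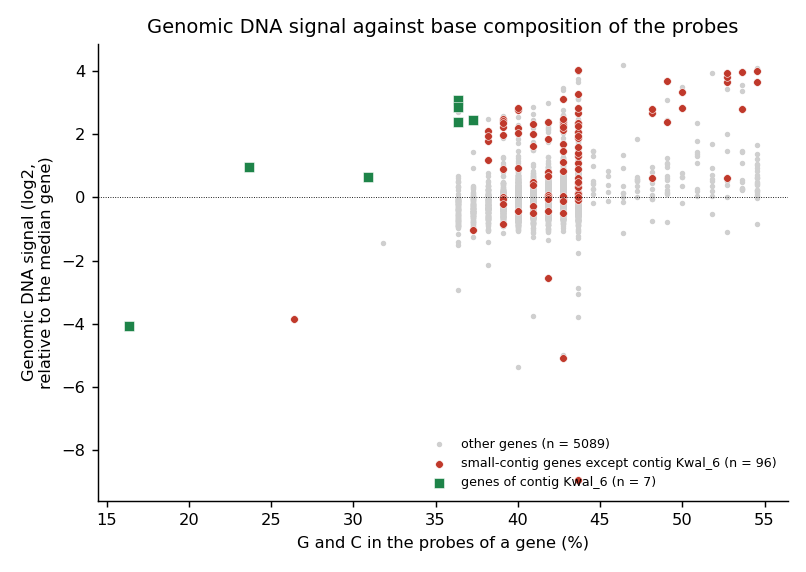
Genomic DNA signal (log2 relative to the median gene, vertical axis) against the G and C content of the probes of a gene (%, horizontal axis) for 5089 other genes in grey, the 7 genes of contig Kwal_6 as green squares and the other 96 small-contig genes in red, each gene as the value over 4 arrays. Kwal_6 reaches down to 16.4% G and C, and at 48% or more the 15 red genes have a median of 3.32 where the grey large-contig genes have a median of 0.55.

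The genomic DNA signal was more than 2-fold below the median gene at 6 small-contig genes, and more than 4-fold below it at 5 of them. Kwal_42.16482, the only gene of its contig, had genomic DNA signals of -5.27, -5.24, -4.74 and -5.04 and RNA signals of -3.30, -3.40, -2.84 and -3.19 on arrays 1 to 4. Its level of 1.87 ± 0.06 (SD, n = 4) passed the bound above the median gene (limma adjusted p = 1.82e-07) although both channels were weak, and its 2 probes differed by 1.64. The call was lost with the other probe alone (limma adjusted p = 0.187). Its level turned to -1.13 with a normexp background. Kwal_20.2724 (-3.85) and Kwal_12.670 (-2.54) were likewise weak in genomic DNA and in RNA, and their levels of -0.11 and -0.32 were near the median gene. These levels are uncertain, because in each gene 1 of the 2 probes had RNA not well above background on any array. The probes of Kwal_20.2724 also differed by 1.36. Kwal_50.19423, at -1.04, had the widest disagreement between probes of all the small-contig genes, 2.62, and a level of -2.36 that turned to 0.27 with the scanner log ratio and missed the bound with the first probe alone (-1.08, limma adjusted p = 0.345). The other genes in this range were Kwal_6.520 and Kwal_37.16342.

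The highest levels with a genomic DNA signal near the median gene were on contigs Kwal_30 and Kwal_19. Kwal_30.12890 had levels of 2.71, 2.67, 2.77 and 2.56 on arrays 1 to 4 (limma adjusted p = 5.37e-09) with a genomic DNA signal of 0.10. Kwal_19.2711 had levels of 2.39, 2.47, 2.46 and 2.40 (limma adjusted p = 1.05e-08) with a genomic DNA signal of 0.34. On every array these genes and Kwal_5.482 lay above all other small-contig genes with usable levels. Their RNA signals of 2.79 and 2.78 were also above the bound, so that these calls held with and without the division by genomic DNA. The dye correction did end them, since Kwal_30.12890 was at 0.998 after loess and Kwal_19.2711 at 0.39 after loess and 0.77 with the scanner log ratio (limma adjusted p = 1 for each). Kwal_20.2729 was at 1.92 ± 0.19 and Kwal_30.12897 at 1.49 ± 0.13 (SD, n = 4), and the call of Kwal_30.12897 was also lost after loess (0.77) and with the scanner log ratio (0.72). Kwal_20.2729 had a genomic DNA signal of -0.85 and an RNA signal that did not pass the bound (1.09, limma adjusted p = 0.342).

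The lowest level measured among all 5192 genes was that of a small-contig gene, Kwal_24.6611. It measured -6.30, -6.25, -6.49 and -6.39 on arrays 1 to 4, or 81.1-fold below the median gene (limma adjusted p = 5.69e-11), with an RNA signal of -4.07 and a genomic DNA signal of 2.28. Its RNA was well above background on 3 of the 4 arrays, at 71.3 to 105 units, where the negative controls had medians of 27.5 to 37 units. Its 2 probes overlapped by 54 bases, so that its level is nearly that of 1 probe. Its contig also carries Kwal_24.6618, described above for its genomic DNA signal. Over all genes, 9 had RNA not well above background on any array, and their true levels could be lower than measured. Among the small-contig genes, Kwal_60.24923 came next at -5.39 ± 0.32 (SD, n = 4), with a genomic DNA signal of 1.68. Its longest stretch shared with a probe of another gene was 54 of 55 bases, in a family of 8 genes. Such genes can capture each other's targets, so that this level may not be that of Kwal_60.24923 alone. Its 2 probes overlapped by 54 bases, and 1 of them had RNA well above background on 3 of the 4 arrays. Kwal_8.570 has no place in this order, because its RNA was not well above background on any array and only a bound holds, at least 34.2-fold below the median gene. Among others below -4 were Kwal_60.24920 (-4.50 ± 0.69) and, with closely agreeing arrays, Kwal_43.16490 (-4.15 ± 0.03) and Kwal_17.2687 (-4.12 ± 0.10, SD, n = 4). Kwal_49.19408 was also at -4.12, with RNA well above background on 2 of the 4 arrays. Further genes below -4 were on Kwal_8 and Kwal_25. The genomic DNA signal of Kwal_17.2687 was 0.015, so that its low level came with low RNA alone, at -4.08. This RNA was near background, at 71.5 to 111 units. With 1 of the 2 probes it was well above background on only 1 of the 4 arrays. After loess the level of Kwal_17.2687 was -1.17 and missed the threshold (limma adjusted p = 0.0531).

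Contig Kwal_8 was the only contig with at least 4 small-contig genes on which every one of them was below the bound. Apart from Kwal_8.570, known only by its bound, its genes had levels from -5.12 to -1.52 and RNA signals from -4.36 to -1.01, and 8 of the 9 genes were also below in RNA alone. Kwal_8.585, the exception, was at -1.01 in RNA. Kwal_8.576 was the lowest of the measured genes, at -5.02, -5.14, -4.86 and -5.30, with RNA well above background on 3 of 4 arrays. Kwal_8.533 followed at -4.61 ± 0.15 (SD, n = 4). Genomic DNA signals on this contig ran from 0.41 to 1.46, all above the median gene. The probes of Kwal_8.596 differed by 1.56. Without Kwal_8, 33 of 94 small-contig genes (35.1%) were below and 10 above, so that the excess of low levels did not rest on this contig.

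Contig Kwal_17 had the widest spread of levels among contigs with at least 4 small-contig genes, and its genomic DNA signals were all close to the median gene, from -0.43 to 0.14. Of its 5 genes, 4 lay between -0.11 and 0.69, and only Kwal_17.2687 was low. The difference between Kwal_17.2691 and Kwal_17.2687, which follow each other in the numbering of genes with probes, was 4.51 ± 0.07 (SD, n = 4), or 22.8-fold. The RNA of Kwal_17.2687 was near background, as given above, so that the size of this step is uncertain. Smaller steps between genes with neighbouring identifiers were seen on Kwal_52 (Kwal_52.19443 over Kwal_52.19444, 3.64 ± 0.21), Kwal_51 (Kwal_51.19428 over Kwal_51.19433, 3.01 ± 0.07) and Kwal_30 (Kwal_30.12890 over Kwal_30.12896, 2.95 ± 0.17). On Kwal_5 the step, of Kwal_5.482 over Kwal_5.492, was 0.84 ± 0.08, less than the difference of 1.07 between the probes of Kwal_5.492. After loess and with the scanner log ratio Kwal_5.482 was instead the lower gene, so that the direction of this step depends on the setting. On Kwal_25 there was none beyond the spread, with Kwal_25.6628 and Kwal_25.6633 differing by -0.00 ± 0.26. These 6 pairs were picked with their levels in view, and their distance on the contig is not known here. Exact two-sided permutation tests of the signs gave the 5 pairs with a step the smallest p that 4 arrays allow (2 of 16 sign patterns) and Kwal_25 p = 1, with exact p adjusted by Benjamini-Hochberg of 0.15 and 1, so that the steps are given as sizes.

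Contig Kwal_40 differed from Kwal_8, with 4 genes whose levels were all slightly positive, from 0.06 to 0.71, and none past the bound. Kwal_40.16456, the lowest, was at -0.22 on array 4. Their RNA signals ran from 1.33 to 3.95 and their genomic DNA signals from 0.60 to 3.82. The ratio was thus much more even along this contig than either channel, although Kwal_40.16444 and Kwal_40.16456 belong to the same family and are not independent measurements.

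Small-contig genes varied more between arrays than other genes. The median SD over the 4 arrays was 0.188, against 0.103 over all genes, a ratio of 1.82. The level ranged over more than 1 (log2) between arrays in 12 small-contig genes (11.7%), against 1.19% of all genes. The variation lay in the RNA channel, where 19 small-contig genes (18.4%, against 1.87% of all genes) ranged over more than 1. In genomic DNA 1 did, Kwal_37.16342, the gene below background. Correlations of levels between arrays, across the 103 genes, were r = 0.994 for arrays 1 and 3, 0.989 for arrays 2 and 4 and 0.966 to 0.973 for the other pairs. Across all genes they were 0.996, 0.996 and 0.991 to 0.992, so that the same pairs of arrays were most alike over the whole array. Genes are not independent replicates in these correlations.

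The genes that varied most lay together on a few contigs. Kwal_25.6633 had RNA signals of -2.18, -0.30, -1.84 and -0.37 on arrays 1 to 4, with genomic DNA signals of 2.88, 2.75, 2.85 and 2.79. Kwal_25.6628 followed the same order at -2.10, -0.10, -1.77 and -0.91. Kwal_2.444 had RNA signals of -2.67, -0.75, -3.17 and -1.29. In all 3 genes arrays 2 and 4 were higher than arrays 1 and 3, without overlap, and the same order held for Kwal_2.440, Kwal_2.442 and Kwal_60.24920. The fourth gene of Kwal_2, Kwal_2.417, had an SD over arrays of 0.03.

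The 5 genes of contig Kwal_46 showed the opposite order. Kwal_46.16521 had RNA signals of 4.13, 3.42, 4.39 and 3.11 on arrays 1 to 4, Kwal_46.16543 had 3.75, 2.93, 4.19 and 2.52, and Kwal_46.16544 had 4.27, 3.27, 4.04 and 3.04. Kwal_46.16540 and Kwal_46.16531 had less RNA, at 1.37, 0.26, 1.32 and 0.71 and at 0.76, 0.32, 0.66 and -0.13. In each of the 5 genes both arrays 2 and 4 were below both arrays 1 and 3. Their genomic DNA signals, from 1.95 to 3.12, ranged over at most 0.35 between arrays. None of the 5 shared a stretch of 20 bases with another gene, and their levels, from -1.76 to 1.22, included 1 below the bound. The files do not say how the RNA samples of the arrays differed, and no test was made of an order noticed in the values.

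**Figure D5:**
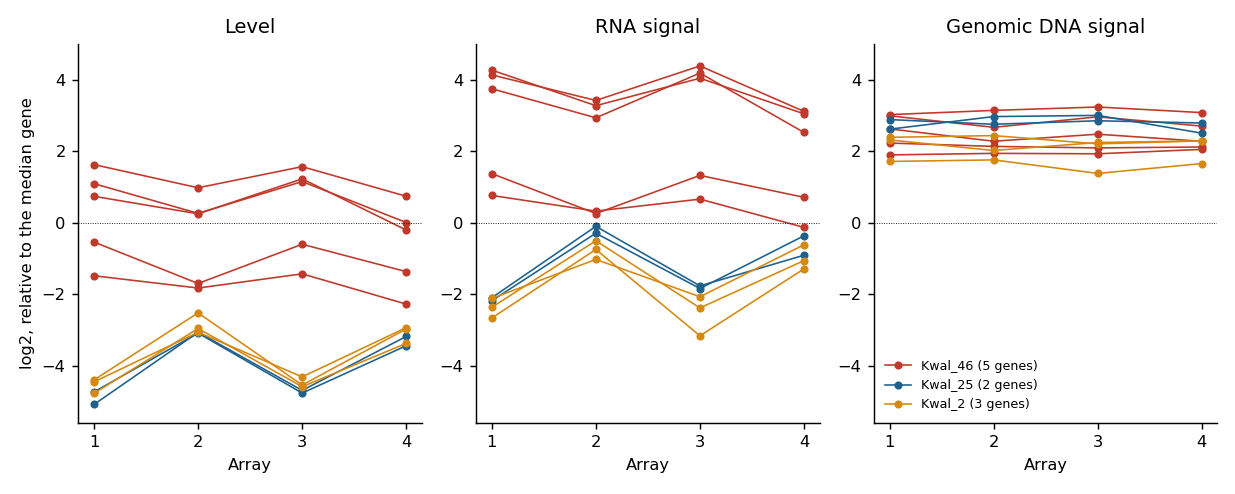
Level, RNA signal and genomic DNA signal (log2 relative to the median gene, vertical axis) on arrays 1 to 4 (horizontal axis) for the 5 genes of contig Kwal_46, the 2 small-contig genes of Kwal_25 and 3 of the 4 of Kwal_2 (without Kwal_2.417), 1 line per gene. The genes of Kwal_46 fall on arrays 2 and 4 and those of Kwal_25 and Kwal_2 rise there in RNA and in level, while the genomic DNA lines are nearly flat.

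The agreement of the 2 probes of a gene was close to that of the whole array. The median difference between probes was 0.258 for small-contig genes and 0.233 for all genes, and it exceeded 1 in 7 small-contig genes (6.80%), against 3.66% of all genes. Levels of different genes are thus less certain relative to each other than their SD over arrays shows. The 2 probes overlapped by 50 or more of their 55 bases in 22 small-contig genes (21.4%), against 12.8% of all genes, and such probes are nearly the same measurement. In the 46 small-contig genes whose probes did not overlap, the median difference was 0.344, against 0.308 for all genes with such probes.

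Set beside the genes most like them, small-contig genes were not alone in low levels. The 37 small-contig genes left out for an identical probe had 1 gene above, 23 below, a median level of -1.56 and a median genomic DNA signal of 1.71. The 50 genes nearest the ends of the large contigs had 1 above, 30 below (60.0%) and a median level of -1.54. These end genes, however, had less RNA (median -1.30, against 0.68) and a lower genomic DNA signal (median 0.57, with 40.0% over 2-fold). The 140 large-contig genes with more than 2-fold genomic DNA signal differed from the 59 small-contig genes with such a signal in the other direction. The 140 had 61 above (43.6%) and 42 below and a median level of -0.11, against 1 above, 24 below and -1.07. The 140 also had more RNA (median 2.28, against 1.24). The middle 50% of their levels ran from -1.28 to 4.84, against -3.05 to -0.61. Both groups were picked by the genomic DNA signal, which is the denominator of the level, so that this contrast is a description alone. These groups were compared by their counts and medians, and no test of the differences was run. On contig Kwal_0, the next larger contig with 83 genes, 21 genes were above and 14 below, with a median level of 0.11 and a median genomic DNA signal of 0.08.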

How the data were processed

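Per the file headers, the 4 deposited scanner files hold the median pixel intensity of each spot and of its local background in both channels, obtained with Agilent Feature Extraction 10.1.1.1. A deposited log10 ratio of Cy5 to Cy3 from that software was used, with its sign turned, as an alternative, together with flags (other values) for outliers, saturation and signal well above background. The authors' log2 value table was not used, since its rows are not tied to genes.

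Background-subtracted median signals gave log2 of Cy3 (RNA) over Cy5 (genomic DNA) per spot. Of 10386 gene probes, 254 marked as outliers on any array and 1 without a positive signal were left out, which gave 5192 genes. The median over probes was taken, followed by quantile normalization over arrays and centring on the median gene. SDs and values per array come from centred arrays without quantile normalization. limma 3.58.1 in R 4.3.3 tested each gene with an intercept alone against a log2 bound of 1 (treat), with Benjamini-Hochberg adjustment over all genes at 0.05. The steps were tested on simulated data. A gene whose RNA was not well above background on any array is given by a bound, set from the lowest signal well above background on each array. The number of arrays limits precision, and p-values measure the spread between these 4 arrays.

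The members and lists were chosen with earlier results of these data known. Genes were named for the highest and lowest levels and genomic DNA signals, the widest probe differences, the largest SDs, RNA not above background, and membership of the contigs with the most calls (Kwal_8) and the widest spread (Kwal_17). Other genes were named after their values were seen.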

Additional observations from a re-analysis of the deposited data

Results flagged for a closer look

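One value stood apart from the other arrays. At Kwal_8.533 the level on array 3 was -4.38, while the other 3 arrays lay between -4.69 and -4.67, and the gap was 0.936 of the whole range. It was the only 1 of 34 values compared over the 4 arrays to pass Dixon's limit for 4 samples, which chance passes about 1 time in 20. The RNA of Kwal_8.533 was weak, at 79 to 122 units, and with 1 of its 2 probes was not well above background on any array.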

How the results depend on the processing

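The median level of the small-contig genes was -0.99 and turned to 0.68 with the RNA signal alone, by construction, because the genomic DNA signal is then not divided out. It was -2.01 with normexp, -4.23 after loess, -2.64 with the scanner log ratio, -1.10 with the other probe alone, -1.12 with shared probes included and, chosen after seeing the data, -0.89 without contig Kwal_8. The cause of the shifts with normexp, loess and the scanner log ratio was not tested. Genes below numbered 74 with normexp, 73 after loess, 75 with the scanner log ratio, 75 in a test against 0 and 65 of 140 with shared probes included. Genes above numbered 34 with RNA alone, 5 after loess, 4 with the scanner log ratio, 24 against 0 and 4 against a 4-fold bound. Shares over all genes are not given for the tests against 0 and 4-fold or with shared probes included. The counts of those settings are thus not read as a result about the small-contig genes. The median genomic DNA signal was 1.88 with probes well above background, 1.47 with outlier spots kept, 1.88 on contigs of 5 or fewer genes and, both chosen after seeing the data, 1.92 without Kwal_8 and 1.95 for genes with both probes well above background. The median SD over arrays was 0.236 with RNA alone, 0.143 after loess and 0.0916 with the scanner log ratio, and the median difference between probes 0.343, 0.516 and 0.422. Leaving out each array in turn gave 10 to 11 genes above, 39 to 44 below, a median level of -0.99 to -0.96, a genomic DNA signal of 1.58 to 1.71, an SD of 0.159 to 0.207 and a probe difference of 0.237 to 0.272. Among single genes, Kwal_5.482 turned to -4.79 after loess and -2.89 with the scanner log ratio, Kwal_5.492 to -0.99 and -0.057, and Kwal_50.19423 to 0.27 with the scanner log ratio. With RNA alone, Kwal_42.16482 turned to -3.19, Kwal_24.6618 to 0.96, Kwal_10.636 to 0.52 and Kwal_44.16504 to 2.96, and Kwal_42.16482 to -1.13 with normexp. Of 493 values of 31 named genes under 16 settings, 460 kept direction and side of the threshold, 16 lost the call, 7 gained it and 10 turned. No paired analysis was possible because there is 1 group. Faint RNA limits Kwal_37.16342, Kwal_8.570 and 4 genes above background on some arrays only with their better probe. With the weaker probe, RNA was well above background on 0 arrays for Kwal_8.533, Kwal_20.2724 and Kwal_12.670. For Kwal_17.2687 it was so on 1 array, and for Kwal_50.19423 and Kwal_60.24923 on 3. Every probe was well above background in both channels on each array in 91 of the 103 genes.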
